A study of Mus musculus with 16 samples.

Results

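Macrophage identity genes are genes whose mRNA marks a cell as a macrophage. They were represented by 9 genes, chosen by symbol from the 47069 genes of the count table: Adgre1, Cd68, Cd14, Lyz1, Lyz2, Mertk, Axl, Spi1 and Mpeg1. All 9 were found and all 9 passed the filter on low counts, which left 13211 genes to test. RNA-seq was performed on BMMs, which are macrophages derived from bone marrow, here of C57BL/6 mice aged 8 to 10 weeks, grown with L929-conditioned medium, a source of the macrophage growth factor CSF1. All cells were primed overnight with IFNγ (10 ng/mL) and activated for 1 hr with LPS (100 ng/mL) plus immune complexes of ovalbumin and rabbit IgG (LPS/ICs). The 2 treated libraries came from cells given DAPT (25 μM), a gamma-secretase inhibitor (GSI), which blocks the release of the Notch intracellular domain. The 2 control libraries came from cells given the vehicle DMSO (0.01%). The paper's general methods give the pretreatment as overnight, while figure legends of other experiments give a shorter time. Its RNA-seq methods do not state the length of pretreatment. An inhibitor of gamma-secretase is not specific to Notch, because the enzyme cleaves many membrane proteins. There were no unstimulated libraries, so the values describe activated cells. The labels do not say whether replicates were separate mice or cultures, so p-values measure only the spread between these libraries. In bulk RNA, fewer macrophages and less RNA per macrophage cannot be told apart.

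A macrophage is made and kept by PU.1, the transcription factor encoded by Spi1, which opens enhancers of myeloid genes together with C/EBP, IRF and RUNX factors. The other members are products of that programme with separate jobs. CD14 hands LPS to TLR4, ADGRE1 (F4/80) is the classical surface antigen of mouse macrophages, and AXL and MERTK are receptor kinases of the TAM family that recognise dying cells through the bridging proteins Gas6 and protein S and restrain inflammation. CD68 is a glycoprotein of the lysosome membrane, Mpeg1 encodes perforin-2, a pore-forming protein of phagosomes, and Lyz1 and Lyz2 encode lysozymes that cut bacterial cell walls.

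The lysozyme genes are neighbours on chromosome 10 of GRCm38 and are shown first because their sequences are so alike while their counts were so unlike. Lyz2 lies at 117277331 to 117282321 and Lyz1 at 117287797 to 117292868, both on the minus strand. The stretch from 250 to 51 bases before the RefSeq start of each gene, on GRCm38.p6, is written here 5′ to 3′ with the bases that differ from the other gene in capitals (Lyz1, chr10:117292919-117293118; Lyz2, chr10:117282323-117282522):
Lyz1: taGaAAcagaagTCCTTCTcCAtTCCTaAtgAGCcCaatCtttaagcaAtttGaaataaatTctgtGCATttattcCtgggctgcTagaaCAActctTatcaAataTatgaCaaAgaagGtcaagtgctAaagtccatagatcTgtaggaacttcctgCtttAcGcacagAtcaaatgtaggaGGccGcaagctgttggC
Lyz2: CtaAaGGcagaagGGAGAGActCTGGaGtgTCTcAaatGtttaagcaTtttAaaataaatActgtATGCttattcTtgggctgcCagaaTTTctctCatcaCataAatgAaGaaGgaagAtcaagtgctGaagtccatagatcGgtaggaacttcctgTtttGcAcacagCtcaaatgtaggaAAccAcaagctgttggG
The RefSeq start of Lyz1 is the end of the gene given above, which is the GENCODE start, while that of Lyz2 lies 49 bases inside the GENCODE gene. The remaining 50 bases up to the RefSeq start were identical in the pair, and over all 250 bases the identity was 79.4% (200 identical positions of 252 aligned). The first 120 coding bases, taken from the GENCODE transcripts of GRCm38 and marked in the same way, held 11 differences:
Lyz1: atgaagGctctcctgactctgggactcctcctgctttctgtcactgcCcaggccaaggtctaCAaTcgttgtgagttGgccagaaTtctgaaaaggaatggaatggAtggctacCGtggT
Lyz2: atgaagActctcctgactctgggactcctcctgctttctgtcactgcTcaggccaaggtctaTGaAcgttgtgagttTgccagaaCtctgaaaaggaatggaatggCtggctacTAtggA
The whole coding sequences of 444 bases were 95% identical, and the longest run shared by the transcripts was 118 bases. Of the 75-base windows of the Lyz1 transcript, 6.22% also occurred in Lyz2 without a mismatch, and a read from these could not be given to either gene by its sequence.

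Lyz2 held 233197 and 305478 counts in the DMSO libraries and 213426 and 236362 counts in the GSI libraries, whereas Lyz1 held 87, 102, 85 and 111. In CPM, which are counts scaled to the library sizes after TMM adjustment, Lyz2 stood 2129 to 2995 times above Lyz1. Lyz2 alone made up 0.546% and 0.537% of all counts with DMSO and 0.44% and 0.477% with GSI. Whether the Lyz1 counts are transcripts of Lyz1 or misassigned reads of Lyz2 was not tested.

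When levels were divided by the length of exons, which is needed to compare genes with each other, the members spread over more than 3 orders of magnitude. In the DMSO libraries Lyz2 came first at 4105 ± 19.3 CPM per kb (SD, n = 2), followed by Mpeg1 (1138 ± 1.82), Cd14 (1042 ± 35.6) and Cd68 (772 ± 35.1). Adgre1 (348 ± 11.4), Spi1 (136 ± 2.15) and Axl (69.2 ± 1.97) were intermediate, and Mertk (10.9 ± 0.581) and Lyz1 (1.51 ± 0.125) were lowest. With GSI the order was the same, except that Cd68 (875 ± 47.1) came before Cd14 (668 ± 58.1). In neither condition did the 2 libraries of a gene overlap with those of the next gene in the order. The narrowest step was that from Mpeg1 to Cd14 with DMSO, a ratio of 1.09. That step narrowed to 1.035 when the longest transcript was used in place of all exons, and all 9 ranks stayed as they were. No member shared exon bases with another annotated gene on either strand.

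**Figure D1:**
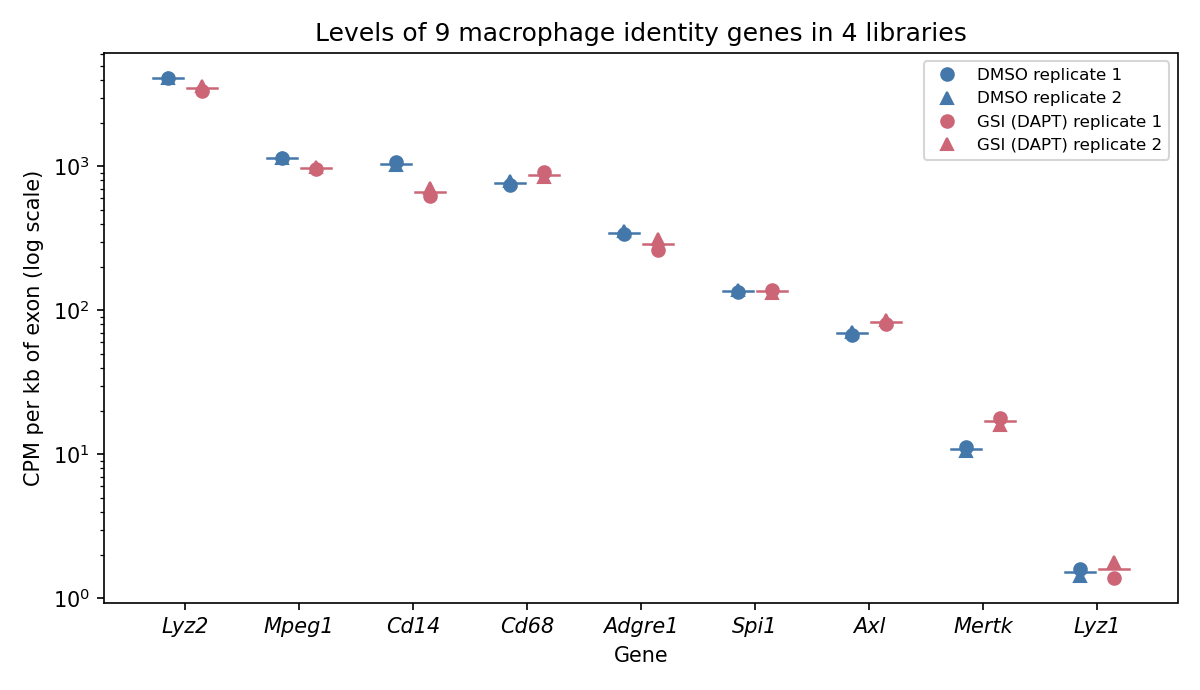
Levels of the 9 genes in CPM per kb of exon (log scale), with 1 point for each library and a horizontal bar at the mean of the 2 libraries of a condition. The genes run from Lyz2, at 4105 CPM per kb with DMSO, down to Lyz1, at 1.51, and Cd14 and Cd68 change places between DMSO and GSI.

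The effect of GSI on these genes was then examined. Cd14 fell most and Mertk rose most, by nearly the same amount on the log2 scale. Adgre1, Lyz2 and Mpeg1 were also lower and Axl was also higher with an adjusted p under 0.05, whereas Cd68, Lyz1 and Spi1 did not pass. Thus 4 of the 9 genes fell and 2 rose. Over all 13211 genes tested, 40.8% passed the same threshold, 21.9% in the lower and 19.0% in the higher direction. Among the 4091 genes averaging at least 40 CPM, as 8 of the 9 genes did, 28.6% were lower and 22.2% higher (a limit set after the values were seen). None of the 9 had an absolute log2 fold change above 1.5, which 2.91% of all tested genes had together with an adjusted p under 0.05. The median log2 fold change of the 9 genes was -0.0057, against 0.0146 for all tested genes. The groups did not overlap for 7 of the 9 genes, 4 of them lower and 3 higher with GSI, which held for 70.6% of all tested genes, 34.8% lower and 35.8% higher. Unless another tool is named, adjusted p-values are those of the edgeR quasi-likelihood fit, adjusted by Benjamini-Hochberg over all tested genes.

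**Figure D2:**
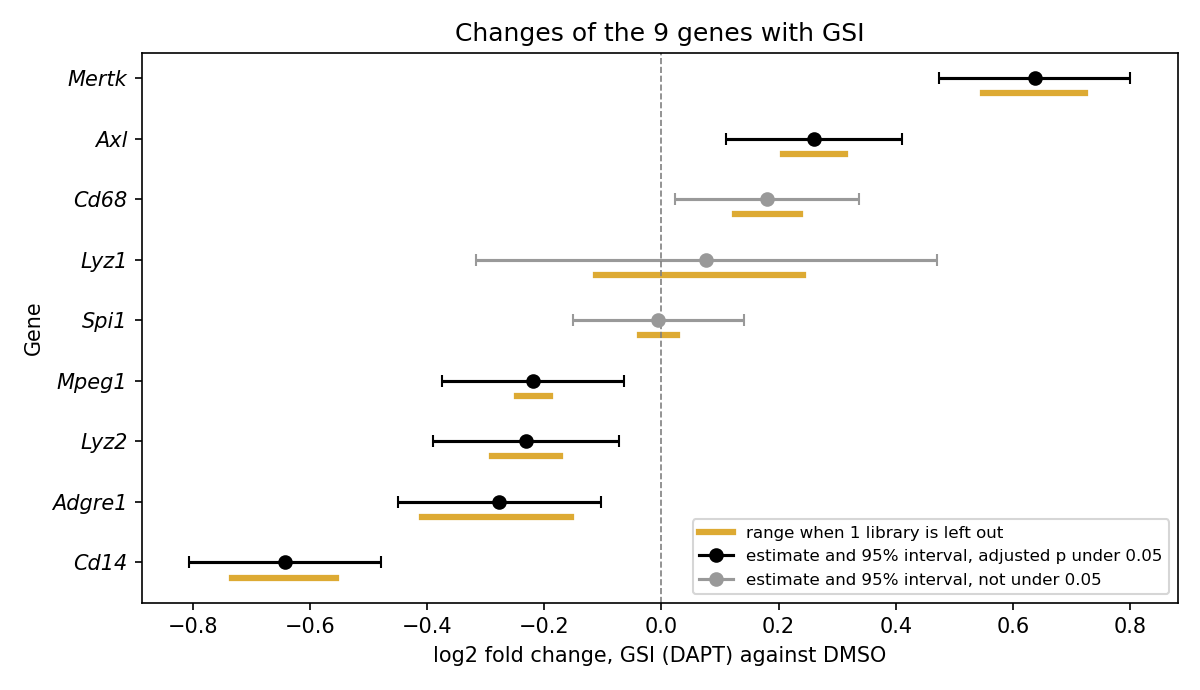
Log2 fold change of each gene with GSI against DMSO (points) with the 95% interval of the edgeR fit (thin lines) and the range of the estimates when 1 of the 4 libraries was left out (thick lines). Cd14 (-0.64) and Mertk (0.64) lie farthest from 0 on either side, and the intervals of Spi1 and Lyz1 include 0.

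Cd14 lies on chromosome 18 (36725067 to 36726798, minus strand). Its level was 1848 and 1761 CPM in the DMSO libraries and 1085 and 1227 CPM in the GSI libraries. Both GSI libraries were thus well below both DMSO libraries, and the difference was larger than the spread within either condition. The log2 fold change was -0.64 (standard error 0.0787, adjusted p = 1.6e-06), a decrease to 0.641 of the DMSO level. It stayed between -0.73 and -0.56 when any 1 library was left out.

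CD14 works at the entrance of the TLR4 pathway, and the genes around it were read from a list of 23 receptor components, adaptors, kinases and other genes of CD14 and TLR4 signaling and of LPS-induced calcium signaling, 22 of which were tested. Of these, 14 fell and none rose, with a median log2 fold change of -0.34. The largest decreases were those of Ly86 (-0.77), which encodes MD-1, the partner of CD180, and of the adaptors Ticam1 (TRIF, -0.68) and Tirap (-0.66). Nfatc2, a calcium-dependent transcription factor, followed with -0.58. Itgb2, the β2 chain of leukocyte integrins, and Cd180 were the most abundant of the list in CPM and fell by 0.35 and 0.38 on the log2 scale.
Tlr4 itself, chosen here after its values were seen, like Ly96 and Myd88, fell less than Cd14. Its level was 75.8 CPM in each DMSO library and, with GSI, 58.2 and 68.8 CPM (log2 fold change -0.26, adjusted p = 0.0143). Per kb of exon, Cd14 stood 78.2 and 74.5 times above Tlr4 with DMSO and 59.9 and 57.2 times with GSI. Ly96, which encodes the LPS-binding MD-2 (log2 fold change 0.07, adjusted p = 0.559), and Myd88, the main adaptor (-0.02, adjusted p = 0.812), did not pass the test.

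Mertk (chromosome 2, 128698956 to 128802894, plus strand) and Axl (chromosome 7, 25757273 to 25788705, minus strand) encode related receptors and were the members that rose. The 250 bases before their RefSeq starts on GRCm38.p6, which lie 41 (Mertk) and 28 (Axl) bases before the GENCODE starts just given, are shown with any GAGGAA or AGGAAGT in capitals, on either strand, letters found in many binding sites of PU.1 (Mertk, chr2:128698665-128698914; Axl, chr7:25788734-25788983):
Mertk: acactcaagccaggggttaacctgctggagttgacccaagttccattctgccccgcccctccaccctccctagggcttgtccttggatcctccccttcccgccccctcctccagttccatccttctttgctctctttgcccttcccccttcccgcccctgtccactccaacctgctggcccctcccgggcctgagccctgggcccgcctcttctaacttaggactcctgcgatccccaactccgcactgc
Axl: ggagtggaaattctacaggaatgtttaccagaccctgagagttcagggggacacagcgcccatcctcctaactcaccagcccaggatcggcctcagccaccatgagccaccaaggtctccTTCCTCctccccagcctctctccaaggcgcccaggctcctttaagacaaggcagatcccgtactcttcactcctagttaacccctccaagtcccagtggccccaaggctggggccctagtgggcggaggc
Of the 6 members whose windows were searched, Axl and Cd68 held GAGGAA and Lyz1 and Lyz2 held AGGAAGT, each with 1 match. Mertk and Mpeg1 held neither. Windows of Cd14, Adgre1 and Spi1 were not searched, so the member that fell most is left out of this tally. In the lysozyme genes the match began 100 bases before the RefSeq start. Of 32851 windows of the same length, 23.3% held GAGGAA and 7.69% held AGGAAGT. The letters were chosen after the sequences were seen, and a match is not a binding site.

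Mertk was measured at 49.0 and 45.5 CPM with DMSO and at 77.8 and 69.0 CPM with GSI. Both GSI libraries were above both DMSO libraries, by more than the spread within a condition. The log2 fold change was 0.64 (standard error 0.0782, adjusted p = 1.62e-06), and leaving out any 1 library gave values from 0.55 to 0.72.
Axl, which was more abundant, was measured at 341 and 355 CPM with DMSO and 402 and 433 CPM with GSI, again without overlap. Its log2 fold change was smaller, 0.26 (standard error 0.0719, adjusted p = 0.00645). Without DMSO replicate 1 it was 0.23 and no longer passed (adjusted p = 0.0709). Per kb of exon, Mertk reached 0.167 and 0.149 of the Axl level with DMSO, and 0.225 and 0.185 with GSI, so that Axl was the more abundant mRNA in every library. Tyro3, the remaining receptor of the family, had at most 4 counts in any library and was not tested.

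A list of 28 genes held TAM ligands, genes for the uptake of dying cells, the sheddases Adam10 and Adam17, sterol-linked genes and inhibitors that act after TAM receptors, such as Socs1 and Socs3. Of the 23 tested, 12 fell and 2 rose (median log2 fold change -0.35). Those that rose, Socs1 (0.46) and the mitochondrial protein gene C1qbp (0.24), are neither TAM ligands nor uptake receptors and were named after their values were seen. Pros1, which encodes the ligand protein S, fell from 85.8 and 88.1 CPM to 44.1 and 48.9 CPM, a log2 fold change of -0.90 (adjusted p = 8.02e-09). Gas6, the other ligand, chosen after its values were seen, was at 28.2 and 30.2 CPM with DMSO and 29.1 and 27.7 CPM with GSI and did not pass (adjusted p = 0.735). The directions of the receptors and of protein S mRNA were thus opposite.
Larger decreases than that of Pros1 were found for the cholesterol exporter Abca1 (-2.28), the engulfment receptor Lrp1 (-1.32) and the integrin chain Itgb5 (-1.13). The most abundant genes of the list in CPM were Tgm2, a transglutaminase, which fell by 0.75 on the log2 scale, and Socs3, a cytokine signaling inhibitor, with a log2 fold change of -0.01 (adjusted p = 0.927).

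Adgre1 lies on chromosome 17 (57358691 to 57483527, plus strand) and had 1100 and 1152 CPM with DMSO and 848 and 1011 CPM with GSI. The groups did not overlap, but the GSI libraries lay far apart from each other. The log2 fold change was -0.28 (standard error 0.0831, adjusted p = 0.0113). It depended on GSI replicate 1, without which it was -0.16 (adjusted p = 0.16), and it also missed the threshold without DMSO replicate 2 (-0.25, adjusted p = 0.0608).
Its relatives in the family of adhesion receptors, of which Adgre4 was chosen after its values were seen, changed more. Adgre5 (CD97) fell from 117 and 119 CPM to 50.8 and 56.6 CPM, a log2 fold change of -1.14 (adjusted p = 3.12e-10). Adgre4 was weakly expressed, and its counts went from 28 and 32 to 5 and 6.

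Among 31 further surface and lineage genes of macrophages, 29 were tested, of which 17 fell and 3 rose, and the median log2 fold change was -0.43. Among genes averaging at least 1 CPM, the largest decreases beside that of Adgre5 were those of the chemokine receptors Cx3cr1 (-1.88) and Ccr2 (-1.80) and of the mannose receptor Mrc1 (-1.29). Csf1r, the receptor of the growth factor that maintains these cells, was chosen after its values were seen and had 2191 and 2391 CPM with DMSO and 1407 and 1706 CPM with GSI, a log2 fold change of -0.56 (adjusted p = 3.43e-05). Cd163, a haemoglobin scavenger receptor, and Marco, a scavenger receptor of the lung and spleen, also chosen after their values were seen, were below 1 CPM on average. Cd163 had 18 and 15 counts with DMSO against 2 and 1 with GSI, and Marco went the other way, from 9 and 18 counts to 58 and 52. The ratio of Adgre1 to Csf1r per kb was higher with GSI, at 1.07 and 1.06 against 0.895 and 0.859 with DMSO. The most abundant genes of this list in CPM were the complement gene C1qb (log2 fold change -0.13, adjusted p = 0.182) and the galectin gene Lgals3, which rose by 0.71 on the log2 scale.

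Lyz2 was measured at 5420 and 5384 CPM with DMSO and 4415 and 4786 CPM with GSI. Mpeg1 (chromosome 19, 12460779 to 12465283, plus strand), another gene for killing microbes, was measured at 4928 and 4939 CPM with DMSO and 4153 and 4324 CPM with GSI. For both genes the DMSO libraries were nearly equal and the GSI libraries were lower. The log2 fold changes were -0.23 for Lyz2 (standard error 0.0761, adjusted p = 0.0194) and -0.22 for Mpeg1 (standard error 0.0742, adjusted p = 0.0232).
Per kb, Lyz2 stood at 3.62 and 3.59 times the level of Mpeg1 with DMSO and at 3.50 and 3.65 times with GSI, a ratio that overlapped between the conditions. Both calls were near the threshold. Each was lost when DMSO replicate 1, DMSO replicate 2 or GSI replicate 1 was left out, with adjusted p-values of 0.0976, 0.0795 and 0.0882 for Lyz2 and 0.108, 0.108 and 0.0619 for Mpeg1, and log2 fold changes no closer to 0 than -0.17. That of Mpeg1 was also lost with upper-quartile scaling (adjusted p = 0.0573).
Lyz1 had 2.02 and 1.80 CPM with DMSO and 1.76 and 2.25 CPM with GSI, which overlap. Its log2 fold change was 0.08 with a 95% interval from -0.32 to 0.47 (adjusted p = 0.778), so that a change of the size seen in Lyz2 was within what about 100 counts per library leave undecided.

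Cd68 (chromosome 11, 69664213 to 69666153, minus strand) had 939 and 1001 CPM with DMSO and 1141 and 1058 CPM with GSI. The groups did not overlap, but the test was not passed, with a log2 fold change of 0.18 (95% interval 0.02 to 0.34, adjusted p = 0.0616). Its call depended on the setting, and among others DESeq2 (adjusted p = 0.0442), upper-quartile scaling (0.0294), no filter on low counts (0.0331) and leaving out GSI replicate 2 (0.0222) gave adjusted p-values on the other side of the threshold. The ratio of Adgre1 to Cd68 per kb, surface antigen to lysosomal antigen, fell between 0.447 and 0.455 with DMSO, and with GSI it was 0.288 in one library and 0.371 in the other.
Of 19 other genes of the lysosome and phagosome, all tested, 8 rose and 2 fell, with a median log2 fold change of 0.14. The largest increases were those of the cathepsin gene Ctsz (1.04), the proton pump subunit Atp6v0d2 (1.00) and the glycoprotein gene Gpnmb (0.62), whereas the tetraspanin gene Cd9 fell by 0.70 on the log2 scale. Of the 2 most abundant in CPM, Ctsb, a cathepsin, rose by 0.26, and Psap, the precursor of saposins, had a log2 fold change of 0.12 (adjusted p = 0.256). Lamp1, which encodes a relative of CD68 and was chosen after its values were seen, had a log2 fold change of 0.19 (adjusted p = 0.0507).

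Spi1 (chromosome 2, 91082390 to 91115756, plus strand) had 363 and 371 CPM with DMSO and 373 and 358 CPM with GSI. These values overlapped and lay within a narrow band. The log2 fold change was -0.01 with a 95% interval from -0.15 to 0.14 (adjusted p = 0.957), and its sign turned with upper-quartile scaling, without the filter on low counts and in 2 of the fits that left out 1 library. In terms of the interval, a change of the size of that of Cd14 or Mertk was outside what these libraries allow for Spi1.
Of 30 transcription factors that act with PU.1 or in macrophages, 29 were tested, of which 14 fell and 5 rose (median log2 fold change -0.16). Irf4, a partner of PU.1 on composite DNA elements, fell from 31.3 and 31.1 CPM to 10.1 and 11.3 CPM, a log2 fold change of -1.54 (adjusted p = 5.18e-11). Irf8, another IRF partner, had 743 and 733 CPM with DMSO and 691 and 631 CPM with GSI, and did not pass (log2 fold change -0.16, adjusted p = 0.0952). Per kb, the Spi1 level exceeded that of Irf4 21.1-fold and 21.7-fold with DMSO, compared with 67.2-fold and 57.7-fold with GSI. The lymphoid and myeloid factor Ikzf1 fell by 0.67 on the log2 scale, while the oxysterol receptor gene Nr1h3 (0.83), Klf2 (0.78) and the immediate early gene Egr1 (0.64), the most abundant of the list in CPM, rose.

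**Figure D3:**
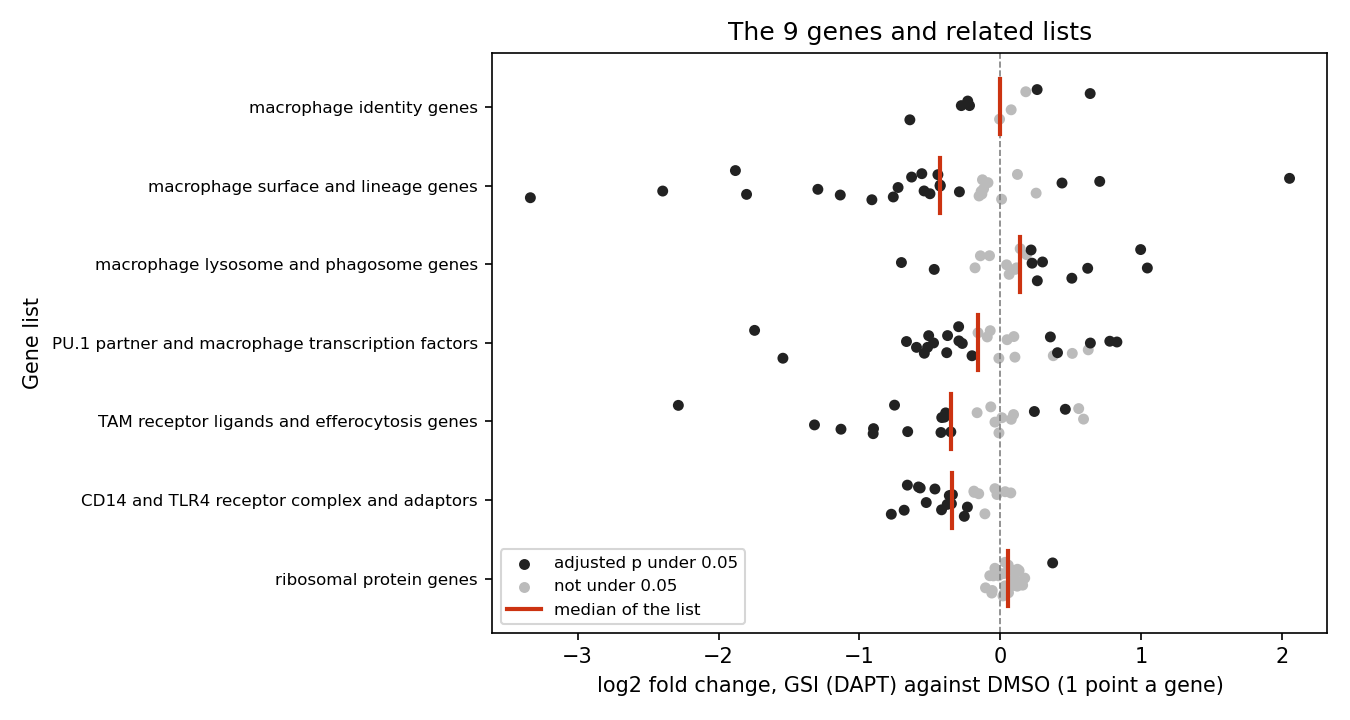
Log2 fold change with GSI against DMSO for each tested gene of the 9 macrophage identity genes, of 5 related lists and of 28 ribosomal protein genes, with black points for an adjusted p under 0.05, grey points for the rest and a red bar at the median. The medians of the surface, TAM and CD14 lists lie at -0.43, -0.35 and -0.34, that of the lysosome list at 0.14 and that of the ribosomal protein genes at 0.06.

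These counts per list are to be read against the 21.9% of tested genes that fell and the 19.0% that rose. For genes averaging at least 40 CPM, as many genes of these lists did, the shares were 28.6% and 22.2%. The balance over all tested genes depended on the scaling, with 2888 genes lower and 2504 higher here and 2592 lower and 2999 higher with upper-quartile factors. The share that fell was 63.6% of the CD14 and TLR4 list, 58.6% of the surface list, 52.2% of the TAM list, 48.3% of the transcription factors and 10.5% of the lysosome list, and the share that rose was 0%, 10.3%, 8.70%, 17.2% and 42.1%. Of 28 ribosomal protein genes, 27 did not pass and 1 rose.

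As the genes closest to a member in their pattern over the 4 libraries, among 7580 other genes averaging at least 10 CPM, Man2b1, Pcyox1 and Synj1 were nearest to Cd14 (distances of 0.0291, 0.0339 and 0.0417 between centred log2 CPM values). Psmd10, Vegfb and Chchd6 were nearest to Mertk (0.0244, 0.029 and 0.0472).

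The libraries held 42694655 to 56932059 counts. Of 8 lists of markers of other cells that bone marrow cultures could hold, 4 were at or near 0. The summed level was 1.35 to 2.19 CPM for 14 neutrophil and granulocyte precursor genes (Elane, Prtn3 and Retnlg at 0), 0.567 to 0.662 CPM for 9 B cell genes (Ebf1 and Igll1 at 0) and 0.446 to 0.67 CPM for 11 erythroid and megakaryocyte genes (8 at 0, with the 4 globin genes). It was 0.284 to 0.558 CPM for 8 mast cell and basophil genes, 7 of them at 0. For these 4 lists no tested gene passed the test. A count of 0 allows at most 0.0529 to 0.0697 CPM, the value of 3 counts in the deepest and the shallowest library.
Some markers moved with GSI. The 10 T and NK cell genes summed to 1.90 and 2.02 CPM with DMSO and 5.95 and 6.41 CPM with GSI, mostly through Cd247 and Lck, while Cd3g, Trbc2, Ncr1 and Prf1 were at 0 and Cd3e had at most 2 counts. The 12 fibroblast, endothelial and fat cell genes summed to 12.5 and 12.6 CPM with DMSO and 32.0 and 34.7 CPM with GSI, mostly through Kdr, while Col3a1, Lum and Adipoq were at 0. Of the other endothelial genes in that list, Pecam1 went the other way, from 1.40 and 1.71 CPM to 0.869 and 0.689 CPM (log2 fold change -1.01, adjusted p = 0.00211), and Cdh5 was at 0.248 to 0.465 CPM and did not pass. The 9 dendritic cell genes summed to 180 and 187 CPM with DMSO and 114 and 116 CPM with GSI, almost all from Clec9a (log2 fold change -0.69). Xcr1 fell as well, from 5.02 and 4.63 CPM to 3.77 and 3.44 CPM (log2 fold change -0.42, adjusted p = 0.0175), while Flt3 had at most 2 counts and Cd209a and Siglech were at 0. The 7 osteoclast genes, some of which macrophages also express, summed to 18.1 to 19.1 CPM in all libraries, but within this list Ctsk (log2 fold change 1.06) and Acp5 (0.30) rose and Ocstamp fell by 0.51 on the log2 scale. The part of the markers that moved in the changes of the 9 genes was not tested.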

How the data were processed

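The authors prepared stranded poly(A) libraries (TruSeq), trimmed adapters with Trimmomatic, aligned with STAR (2.5.0a per the labels) and counted with HTSeq. The deposited values are raw counts per gene for 16 columns. The paper names mm10, the labels mm9 and mm10. HTSeq mode and strand setting are not given in the sources used here. The 4 columns of a replicate, taken as runs, were summed to 4 libraries: within a library they differed by about the sampling noise (chi-square per degree of freedom 1.01 to 1.03), and 0 genes differed after Benjamini-Hochberg adjustment of that chi-square test (5.06% to 5.58% had an unadjusted p under 0.05). Floors cover counting error only.

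Tests used edgeR 4.0.16 in R 4.3.3 (quasi-likelihood, filterByExpr, TMM, no covariate, adjusted p under 0.05). The standard error was the log2 fold change divided by the square root of F. The fit was tested on simulated data. Alternatives included DESeq2 1.42.0. Positions and exon lengths came from GENCODE M21 (GRCm38), which held 98.77% of gene IDs. CPM per kb used all exons of a gene.

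The members and the gene lists were chosen with earlier results of these data known. Named from each related list were the 4 largest changes past the threshold at a mean of at least 1 CPM and the 2 most abundant genes. Genes most like a member were sought for the largest decrease and increase.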

Additional observations from a re-analysis of the deposited data

How the results depend on the processing

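Alternatives that changed the scaling, the filter or the tool left between 3 and 4 genes lower and between 2 and 3 higher, against 4 and 2 in the report. With a fold change of 1.5 as the null of glmTreat, 839 genes passed over the whole table (600 lower, 239 higher), and with an absolute log2 fold change above 1.5 as a second threshold 385 did (287 lower, 98 higher), against 5392. Neither left any of the 9 genes called (0 lower, 0 higher). When 1 library was left out, the number of genes lower ranged from 1 to 4 and the number higher from 1 to 3. A group then has 1 library, which is assumed to vary like the other group. The calls for Cd14 and Mertk held in each of these 4 fits.

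With the replicate number as a block, 6444 genes passed, and of the 9 genes 4 were lower and 3 higher, since Cd68 passed (adjusted p = 0.0213, edgeR). The deviations of libraries with the same number correlated at 0.155 over 13211 genes. With 2 pairs and no label that explains the number, this does not show pairing.

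The sign of Spi1 turned in 4 alternatives, with log2 fold changes of 0.0301 (upper-quartile scaling), 0.0019 (no filter) and 0.0074 and 0.0261 (without DMSO replicate 2 and without GSI replicate 2), its lowest with 1 library left out being -0.0368. That of Lyz1 turned without DMSO replicate 2 (-0.0156) and without GSI replicate 2 (-0.111), its highest being 0.242. The cause was not tested. For Lyz1, about 100 counts per library limit the precision.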
